A study of Homo sapiens with 4 samples.

Results

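The 10 genes described here encode the cyclins that drive mitosis and the machinery that destroys them. They are CCNA2, CCNB1 and CCNB2 (cyclins A2, B1 and B2), the anaphase-promoting complex (APC/C) activators CDC20 and FZR1, the APC/C inhibitor FBXO5 (EMI1), the APC/C ubiquitin-conjugating (E2) enzymes UBE2C and UBE2S, and PTTG1 (securin) and ESPL1 (separase). They were chosen by name, with earlier results of these data known, as 10 of the 64252 gene rows of the deposited table. All 10 passed the filter on low counts.

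RNA was sequenced from SK-N-BE(2), an established line of MYCN-amplified human neuroblastoma cells. The tested cells received a short hairpin RNA against IGF2BP3 (shIGF2BP3, 2 libraries), and the cells they were compared with received a control hairpin (shControl, 2 libraries). The knocked-down protein binds mRNAs that carry the m6A mark, and the series title asks about its action on E2F2 mRNA. The labels name neither the hairpin sequences, nor whether pools or clones were used, nor whether replicates were separate cultures. The spread behind every p-value is that of these libraries and could be technical.

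As background, cyclin A and cyclin B bind the kinase CDK1 and carry the cell from late S phase through G2 into mitosis. Once every chromosome is attached to the spindle, the APC/C with its activator CDC20 marks cyclin B and securin with ubiquitin for destruction by the proteasome. Loss of securin frees separase, which cuts cohesin so that sister chromatids part, and FZR1 then keeps the APC/C active through G1 until EMI1 shuts it off. The mRNAs of most of these genes peak in G2 and mitosis. Many such genes share a promoter layout, in which CCAAT boxes bound by NF-Y lie upstream of a cell cycle homology region (CHR) bound by MuvB complexes with B-MYB and FOXM1.

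Promoters of 8 of the genes are shown beside the layout described above. Any part of this layout in the changes after knockdown was not tested. RefSeq windows (GRCh38.p14, each of 300 bases, from 250 before to 50 after a transcript start) were matched by symbol for 9 of the 10 genes, with 12 windows in all. UBE2C had no window in the table used. The bases up to the one just before the start are printed 5′ to 3′ on the gene's own strand. Capitals mark CCAAT boxes and the words TTTGAA or TTTAAA or CTTGAA, searched on both strands, so that a match on the other strand reads ATTGG or TTCAAA here. For FBXO5 the second of the listed starts is shown. Neither CCAAT nor any of these words was found in the window of its first listed start. RefSeq starts can differ from the GENCODE gene ends given with the values.
CCNA2 (chr4:121823884-121824083, minus strand): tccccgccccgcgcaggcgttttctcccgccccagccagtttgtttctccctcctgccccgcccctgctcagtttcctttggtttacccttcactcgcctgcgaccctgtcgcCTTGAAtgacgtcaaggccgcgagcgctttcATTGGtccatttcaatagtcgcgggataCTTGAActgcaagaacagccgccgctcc
CCNB1 (chr5:69166950-69167149, plus strand): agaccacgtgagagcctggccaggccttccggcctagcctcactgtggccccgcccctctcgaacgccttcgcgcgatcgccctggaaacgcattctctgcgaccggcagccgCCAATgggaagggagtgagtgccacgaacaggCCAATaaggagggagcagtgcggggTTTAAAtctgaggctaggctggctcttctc
CCNB2 (chr15:59104946-59105145, plus strand): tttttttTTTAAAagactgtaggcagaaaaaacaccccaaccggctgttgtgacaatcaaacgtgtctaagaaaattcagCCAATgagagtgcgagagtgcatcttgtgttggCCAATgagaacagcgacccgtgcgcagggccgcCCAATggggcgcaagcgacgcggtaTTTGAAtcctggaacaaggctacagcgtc
CDC20 (chr1:43358781-43358980, plus strand): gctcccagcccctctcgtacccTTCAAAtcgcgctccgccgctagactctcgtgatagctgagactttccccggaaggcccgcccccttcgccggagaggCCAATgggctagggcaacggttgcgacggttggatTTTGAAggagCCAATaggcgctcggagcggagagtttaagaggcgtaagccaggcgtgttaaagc
PTTG1 (chr5:160421655-160421854, plus strand): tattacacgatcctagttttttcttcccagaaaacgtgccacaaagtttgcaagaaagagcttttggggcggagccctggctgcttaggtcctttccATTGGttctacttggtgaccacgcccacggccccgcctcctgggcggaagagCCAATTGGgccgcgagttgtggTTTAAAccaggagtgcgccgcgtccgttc
ESPL1 (chr12:53268099-53268298, plus strand): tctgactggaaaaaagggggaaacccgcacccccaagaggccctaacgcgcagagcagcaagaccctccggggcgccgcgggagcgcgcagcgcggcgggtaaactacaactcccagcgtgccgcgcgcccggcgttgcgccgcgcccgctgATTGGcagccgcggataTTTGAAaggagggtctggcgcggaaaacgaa
FBXO5 (chr6:152983042-152983241, minus strand): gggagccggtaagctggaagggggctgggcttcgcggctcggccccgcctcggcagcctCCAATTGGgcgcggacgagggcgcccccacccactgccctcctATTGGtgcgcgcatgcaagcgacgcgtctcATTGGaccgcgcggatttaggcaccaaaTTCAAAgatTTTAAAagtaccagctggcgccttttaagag
FZR1 (chr19:3506061-3506310, plus strand): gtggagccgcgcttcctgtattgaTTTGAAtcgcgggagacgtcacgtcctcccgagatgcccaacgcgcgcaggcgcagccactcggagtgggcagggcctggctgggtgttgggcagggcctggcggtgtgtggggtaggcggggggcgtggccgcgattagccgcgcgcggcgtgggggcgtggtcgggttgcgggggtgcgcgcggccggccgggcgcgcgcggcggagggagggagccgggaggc

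TTTGAA, a common form of the CHR, was found in 5 of the 12 windows, 1 each of CCNB2, CDC20, FZR1, ESPL1 and FBXO5, and 15.2% of all 35116 windows in the table held it. In CCNB2 it lay at -29 to -24 from the start, 20 bases after the last of 4 CCAAT boxes in its window. ESPL1 had it at -31 to -26, 12 bases after a CCAAT box on the other strand, and CDC20 at -65 to -60, 30 bases after a CCAAT box. In FBXO5 it stood on the other strand at -40 to -35. FZR1 carried it far upstream, at -226 to -221, in a window with no CCAAT.

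The CHR-like words TTTAAA and CTTGAA, which were added after the windows were seen, were found in 12.2% and 11.2% of all windows. TTTAAA matched 5 of the 12 windows (4 genes) and CTTGAA 1 window. CCNB1 had TTTAAA at -30 to -25, 20 bases after a CCAAT box, and PTTG1 had it at -29 to -24 in the printed window. It also lay at -31 to -26 in FBXO5 and at -193 to -188 in CCNB2. CCNA2 had CTTGAA at -28 to -23, 23 bases after a CCAAT box on the other strand, and again at -87 to -82. CCAAT was present in 9 of the 12 windows (8 of the 9 genes), against 34.6% of all windows. TTTGAA together with CCAAT was present in 4 of the 12 windows (4 genes), against 5.9% of all windows. One of the 3 CHR-like words together with CCAAT was present in 8 of the 12 windows (7 genes), against 12% of all windows. That larger count includes the words added after the windows were seen. UBE2S had CCAAT alone, and FZR1 a CHR-like word alone. TTCGAA (1.45% of all windows) and TTTNGCGC, an E2F-like word (1.79%), matched none of the 12 windows. These are matches of letters, and no binding was measured.

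The libraries held between 26755695 and 31946756 counts, and replicates differed by more than sampling noise. The targeted mRNA, IGF2BP3, was counted 813 and 875 times in shIGF2BP3 cells, against 4215 and 4347 times in shControl cells, a log2 fold change of -2.28 (SE 0.09, edgeR adjusted p = 1.655e-12). E2F2, the transcription factor of the series title, stood at a log2 fold change of -1.69 (SE 0.10) in the same test. All 11 neuroblastoma markers examined, such as HAND2, were detected, and 9 of them passed as lower and 1 as higher. Over all tested genes, 25.6% passed as lower and 51.5% in either direction. Markers of other cell types were low except for fibroblast markers. The fibroblast markers summed to 707.3 to 723.3 CPM in shIGF2BP3 and 546.3 to 577.9 CPM in shControl, with FAP at 0 counts throughout. Of the 6 tested, 3 passed as higher, among them COL1A1 at 1.77 on the log2 scale. LUM passed as lower, at -1.09, and 2 did not pass. Leukocyte markers summed to 2.41 to 3.32 CPM in shIGF2BP3 and 1.95 to 2.97 CPM in shControl, with CD3E and LYZ at 0. Schwann cell and glia markers summed to 9.29 to 9.53 CPM in shIGF2BP3 and 5.94 CPM in each shControl library, with SOX10 at 0. Epithelial markers summed to 6.82 to 8.58 CPM in shIGF2BP3 and 11.4 to 14.9 CPM in shControl. The part of other cell types in the results below was not tested.

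All 10 genes were lower after knockdown, with fitted log2 fold changes from -2.45 for PTTG1 to -1.35 for FZR1 and a median of -1.75, where the median of all tested genes was 0.0094. All 10 passed edgeR's quasi-likelihood test at a Benjamini-Hochberg adjusted p of 0.05 over 19767 tested genes, the test and adjustment behind every edgeR adjusted p given here. In that test 51.5% of all genes passed in either direction and 25.6% passed as lower. All 10 also passed as lower by more than 1.5-fold (edgeR's glmTreat), which 10.3% of all tested genes did. In all 10 genes both shIGF2BP3 libraries lay below both shControl libraries, as in 36.7% of tested genes. Together the 10 genes made up 411.2 and 378.8 CPM (counts brought to one library total by edgeR's TMM factors) in the shIGF2BP3 libraries, against 1465 and 1393 CPM in the shControl libraries. In bulk RNA, fewer cells in G2 and mitosis and less of these mRNAs per cell cannot be told apart.

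**Figure D1:**
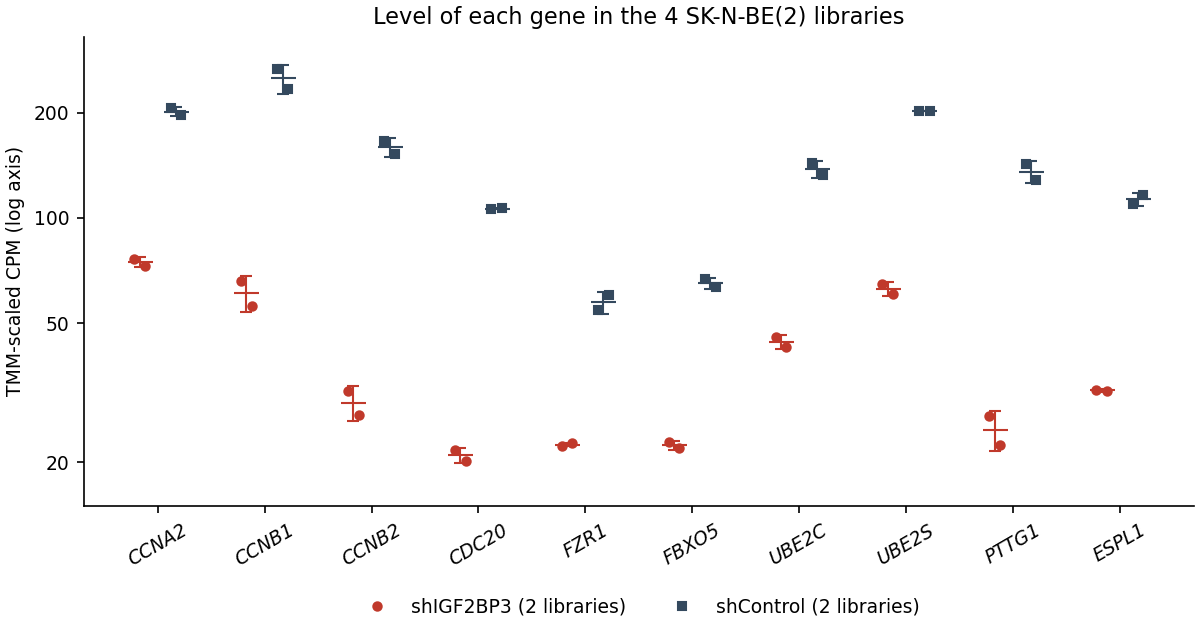
TMM-scaled CPM of the 10 genes (log axis) in 2 shIGF2BP3 libraries (red circles) and 2 shControl libraries (dark squares), with the mean and SD of each group as bars. Every shIGF2BP3 point lies below both shControl points of the same gene, and the shIGF2BP3 means run between 20.9 CPM for CDC20 and 74.8 CPM for CCNA2.

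All 3 cyclins fell, and the B types had the larger fold changes. CCNB1, the main partner of CDK1 at mitotic entry (ENSG00000134057, chromosome 5, 69167010 to 69178245, plus strand), had 66.2 and 56.1 CPM in the shIGF2BP3 libraries and 267.7 and 234.0 CPM in the shControl libraries. The groups were far apart, at 61.1 ± 7.13 CPM in shIGF2BP3 and 250.9 ± 23.8 CPM in shControl (SD, n = 2 each). The fitted log2 fold change was -2.04 (SE 0.09, edgeR adjusted p = 3.206e-11).

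CCNB2, the other B-type cyclin of mitotic cells (ENSG00000157456, chromosome 15, 59105078 to 59125045, plus strand), fell more steeply still. It had 32.0 and 27.3 CPM in the shIGF2BP3 libraries and 166.5 and 152.1 CPM in the shControl libraries, so that 18.6% of the shControl mean was left. Its fold change on the log2 scale was -2.42 (SE 0.09, edgeR adjusted p = 1.003e-12).

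CCNA2, which acts with CDK2 in S phase and with CDK1 in G2 (ENSG00000145386, chromosome 4, 121816444 to 121823933, minus strand), had 76.5 and 73.0 CPM in the shIGF2BP3 libraries and 205.9 and 197.3 CPM in the shControl libraries. At 37.1% of the shControl mean, it kept more of its level than either B-type cyclin did, with a log2 fold change of -1.43 (SE 0.07, edgeR adjusted p = 2.526e-11). The row overlaps EXOSC9, an exosome subunit gene on the other strand, by 578 bases, and the strand setting of the counting is not given. EXOSC9 had a log2 fold change of -0.92 (SE 0.10).

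The balance between the cyclins changed accordingly. Per kilobase of annotated exon, CCNB1 RNA stood at 0.945 and 0.840 times CCNA2 RNA in the shIGF2BP3 libraries, against 1.42 and 1.30 times in the shControl libraries. CCNB1 was thus the lower of the pair in both shIGF2BP3 libraries and the higher in both shControl libraries. Here and in the ratios below, division by all annotated exon bases can decide which gene of a pair reads higher. The ratio of CCNB2 to CCNB1 was 0.442 and 0.444 in shIGF2BP3 and 0.568 and 0.593 in shControl. Both ratios separated the groups. An exact two-sided permutation test gave p = 0.333 for each, the smallest that 2 against 2 libraries allow, and 0.4 after Benjamini-Hochberg adjustment over the 6 pairs of genes examined.

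Both APC/C activators fell, and CDC20 had the larger fold change. CDC20, which directs the APC/C to securin and cyclin B at anaphase (ENSG00000117399, chromosome 1, 43358955 to 43363203, plus strand), had 21.7 and 20.2 CPM in the shIGF2BP3 libraries and 106.0 and 106.6 CPM in the shControl libraries. The shControl libraries almost coincided, and the shIGF2BP3 mean was 19.7% of theirs. The fitted log2 fold change was -2.34 (SE 0.09, edgeR adjusted p = 1.289e-12).

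FZR1 (CDH1), which activates the APC/C from late mitosis through G1 (ENSG00000105325, chromosome 19, 3506273 to 3538330, plus strand), had 22.3 and 22.6 CPM in the shIGF2BP3 libraries and 54.4 and 60.2 CPM in the shControl libraries. It showed the smallest change of the 10 genes in the main fit, a log2 fold change of -1.35 (SE 0.10, edgeR adjusted p = 5.234e-09). Without shControl replicate 1, FZR1 stood at -1.43 and CCNA2 at -1.40 on the log2 scale. The FZR1 row overlaps MFSD12 on the other strand by 70 bases. MFSD12 moved the other way, with a log2 fold change of 0.48 (SE 0.10).

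Per kilobase, CDC20 RNA stood at 2.77 and 2.54 times FZR1 RNA in the shIGF2BP3 libraries, against 5.55 and 5.04 times in the shControl libraries. The excess of the mitotic activator over the G1 activator was therefore smaller in both shIGF2BP3 libraries, by 1.00 on the log2 scale, with an exact permutation p of 0.333.

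FBXO5 (EMI1), which blocks the APC/C during S phase and G2 so that cyclins can build up (ENSG00000112029, chromosome 6, 152970519 to 152983579, minus strand), had 22.8 and 21.9 CPM in the shIGF2BP3 libraries and 66.7 and 63.4 CPM in the shControl libraries. The inhibitor fell along with the activators. The fitted log2 fold change was -1.54 (SE 0.10, edgeR adjusted p = 5.327e-10). The ratio of FBXO5 to FZR1 per kilobase was 1.55 and 1.46 in shIGF2BP3 and 1.86 and 1.59 in shControl, groups that did not overlap but lay close together (exact permutation p = 0.333).

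The E2 enzymes fell by nearly the same amount. UBE2C, which starts ubiquitin chains on APC/C substrates (ENSG00000175063, chromosome 20, 45812576 to 45816957, plus strand), had 45.7 and 42.8 CPM in the shIGF2BP3 libraries and 143.2 and 132.4 CPM in the shControl libraries. UBE2S, which extends those chains (ENSG00000108106, chromosome 19, 55399745 to 55407777, minus strand), had 64.8 and 60.6 CPM in the shIGF2BP3 libraries and 201.8 and 202.3 CPM in the shControl libraries. The shIGF2BP3 mean was 32.1% of the shControl mean for UBE2C and 31.0% for UBE2S.

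UBE2C had a log2 fold change of -1.64 (SE 0.08, edgeR adjusted p = 2.419e-11) and UBE2S one of -1.69 (SE 0.07, edgeR adjusted p = 4.371e-12). The ratio of UBE2C to UBE2S per kilobase was 1.53 in each shIGF2BP3 library and 1.54 and 1.42 in the shControl libraries. The groups overlapped in this ratio. Between the group means it differed by 0.05 on the log2 scale (exact permutation p = 1).

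Both E2 genes have processed pseudogenes, intronless copies whose reads can be confused with those of the parent gene. UBE2SP1 was counted 37 and 70 times in shIGF2BP3 cells and 162 and 165 times in shControl cells, a log2 fold change of -1.55 (SE 0.30). UBE2SP2 was counted 2 and 4 times in shIGF2BP3 cells and 16 and 28 times in shControl cells (log2 fold change -2.76, SE 0.82), and its call was lost without shIGF2BP3 replicate 1 (edgeR adjusted p = 0.0835) and without shControl replicate 2 (edgeR adjusted p = 0.0979). UBE2CP5 was counted 83 and 74 times in shIGF2BP3 cells and 42 and 79 times in shControl cells, and did not pass the test. UBE2CP1 was counted 5 and 10 times in shIGF2BP3 cells and 0 times in both shControl libraries. CDC20P1 was counted 10 times in each shIGF2BP3 library and 2 and 10 times in the shControl libraries.

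UBE2S also overlaps RPL28, an abundant ribosomal protein gene on the other strand, by 3506 bases. RPL28 had a log2 fold change of -0.15 (SE 0.07) and did not pass the test. With the counts of all copies added to their parent genes, all 10 genes still passed as lower.

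**Figure D2:**
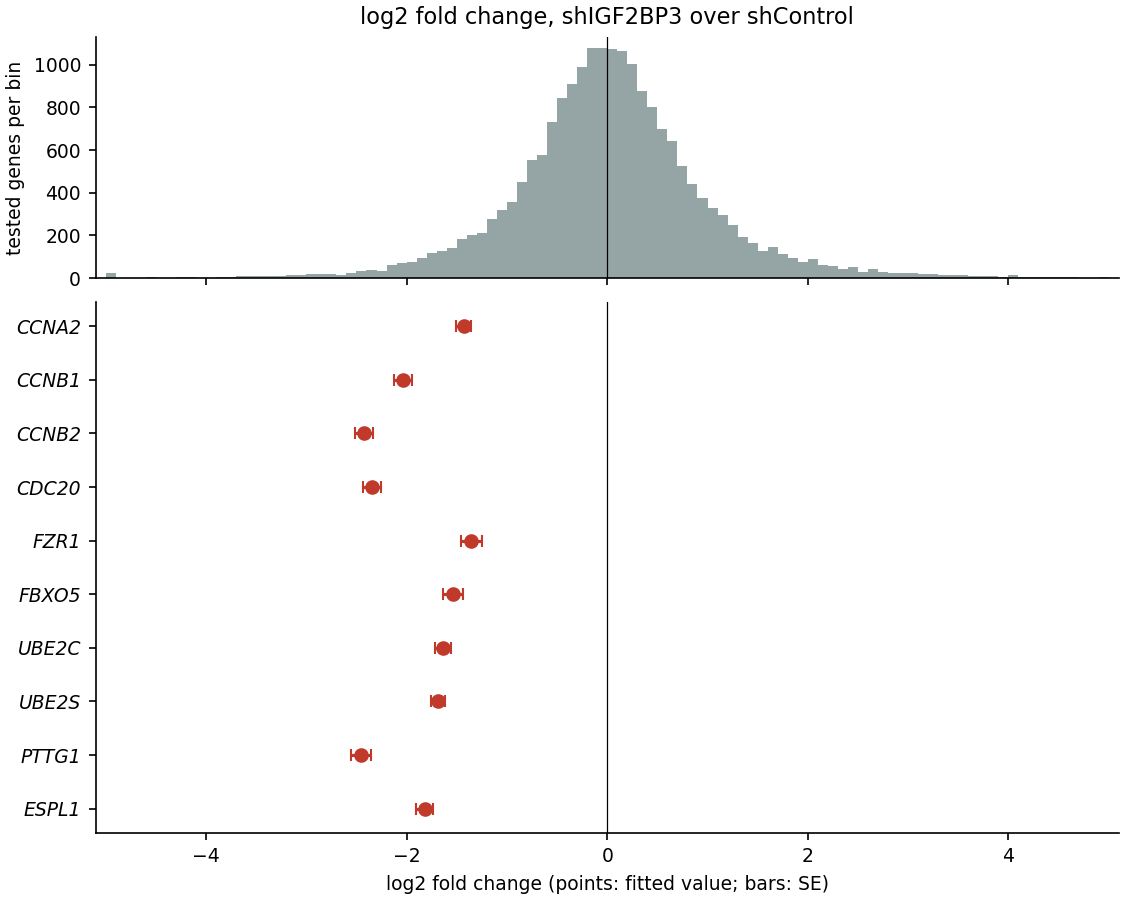
Top, log2 fold changes (shIGF2BP3 over shControl) of all 19767 tested genes in bins, with genes beyond 5 in either direction drawn in the end bins. Bottom, the 10 genes with their SE, all lower, between -2.45 for PTTG1 and -1.35 for FZR1.

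Securin and separase both fell, securin more. PTTG1, which holds separase inactive until anaphase (ENSG00000164611, chromosome 5, 160421822 to 160428744, plus strand), had 27.0 and 22.4 CPM in the shIGF2BP3 libraries and 142.4 and 128.5 CPM in the shControl libraries. At 18.3% of the shControl mean, it was the most reduced of the 10 genes. The fitted log2 fold change was -2.45 (SE 0.10, edgeR adjusted p = 1.665e-12). The near-identical copies PTTG2 and PTTG3P had 0 counts in all 4 libraries.

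ESPL1, the protease that cleaves cohesin (ENSG00000135476, chromosome 12, 53268299 to 53293643, plus strand), had 32.3 and 31.9 CPM in the shIGF2BP3 libraries and 109.8 and 116.6 CPM in the shControl libraries. The shIGF2BP3 libraries differed by little, and both were far below the shControl pair. The fitted log2 fold change was -1.82 (SE 0.09, edgeR adjusted p = 1.079e-11). Per kilobase, PTTG1 RNA stood at 3.70 and 3.10 times ESPL1 RNA in the shIGF2BP3 libraries, against 5.73 and 4.87 times in the shControl libraries. Securin RNA was thus less in excess of separase RNA after knockdown, by 0.64 on the log2 scale, with an exact permutation p of 0.333.

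Agreement between replicates varied from gene to gene. In the shIGF2BP3 group, replicate 1 exceeded replicate 2 by a factor of 1.21 for PTTG1, 1.18 for CCNB1 and 1.17 for CCNB2, while ESPL1 and FZR1 differed by factors of 1.01 and 0.984. Replicate 1 was the higher library in 9 of the 10 genes there, all but FZR1, and in 6 of the 10 genes in shControl. None of these differences approached the gap between the groups.

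The order of the genes by level also shifted. In terms of CPM per kilobase of exon, UBE2C led in both groups, at 34.4 ± 1.59 in shIGF2BP3 and 107.2 ± 5.97 in shControl (SD, n = 2 each). In shIGF2BP3 it was followed by CCNA2 (26.7 ± 0.89), CCNB1 (23.9 ± 2.79) and UBE2S (22.5 ± 1.07), and the libraries of CCNB1 and UBE2S overlapped. In shControl the next was CCNB1 (98.1 ± 9.31), whose libraries overlapped those of UBE2C, and then UBE2S (72.5 ± 0.11), CCNA2 (72.1 ± 2.17) and PTTG1 (67.3 ± 4.88), each overlapping its neighbour.

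PTTG1 (12.3 ± 1.62), CCNB2 (10.6 ± 1.19) and CDC20 (10.3 ± 0.51) formed an overlapping group in shIGF2BP3. In shControl CCNB2 (56.9 ± 3.64) and CDC20 (52.2 ± 0.19) lay below PTTG1 without overlap. The lowest levels were those of FBXO5, FZR1 and ESPL1, at 5.83, 3.87 and 3.61 in shIGF2BP3 and at 17.0, 9.88 and 12.7 in shControl. FZR1 was therefore above ESPL1 after knockdown and below it in the control, without overlap in either group. These levels divide by all annotated exon bases of a gene, so a gene with long rare exons reads too low.

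**Figure D3:**
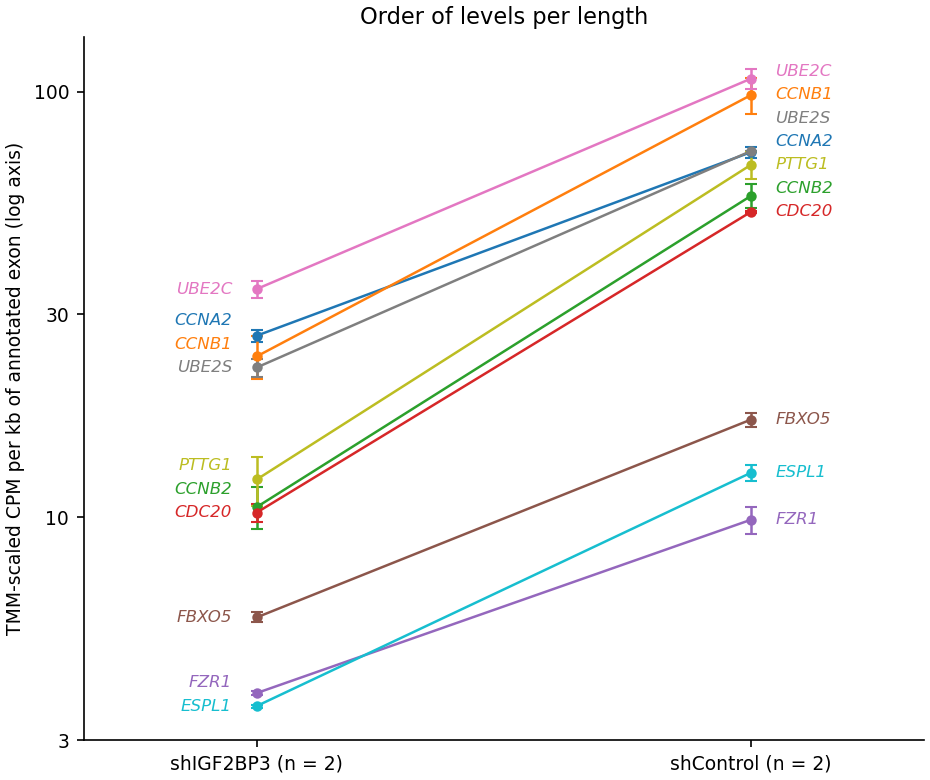
Mean level per kilobase of annotated exon (log axis) of the 10 genes in shIGF2BP3 (left) and shControl (right), with SD bars over 2 libraries. The lines of CCNA2 and CCNB1 cross, as do those of FZR1 and ESPL1, while UBE2C is highest in both groups.

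The core of the APC/C itself changed by smaller folds than its activators and E2 enzymes. Of 14 subunit genes, 8 passed as lower, 3 passed as higher and 3 did not pass, and their median stood at -0.32 on the log2 scale. Over all tested genes, 25.6% passed as lower and 51.5% in either direction. By edgeR's glmTreat, 1 of the 14 passed as lower by more than 1.5-fold, which 10.3% of all tested genes did. The summed level of the subunit genes was 1103 and 1108 CPM in the shIGF2BP3 libraries and 1189 and 1150 CPM in the shControl libraries. ANAPC11, the RING subunit that meets the E2, stood at -0.81 on the log2 scale, CDC23 at -0.69 and CDC27 at -0.50, while ANAPC16 stood at 0.66, all past the test. The difference between the subunits and the 10 genes was not tested.

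The kinase side of the switch was lower too. Of 14 genes for CDK1 and its regulators, 12 passed as lower, 0 as higher and 2 missed the threshold, with a median of -1.25. The share of all tested genes that passed as lower was 25.6%. CDK1 itself had 55.5 CPM in shIGF2BP3 and 235.5 CPM in shControl (log2 fold change -2.09, SE 0.07). CKS1B, a small CDK-binding subunit, stood at -3.17, WEE1, the kinase that holds CDK1 inactive, at -1.91, and CDC25B, a phosphatase that activates it, at -1.18 on the log2 scale, all past the test. An inhibitor and an activator of CDK1 were thus lower together.

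All 8 spindle checkpoint genes passed as lower, against 25.6% of all tested genes, with a median of -1.89. This checkpoint holds CDC20 in check until the chromosomes are attached. MAD2L1 had 31.0 CPM in shIGF2BP3 and 174.2 CPM in shControl (log2 fold change -2.49, SE 0.08), and BUB1B, TTK and BUB1 stood at -2.37, -2.00 and -1.88 on the log2 scale.

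All 22 further APC/C substrates on the list passed as lower, against 25.6% of all tested genes, with a median of -1.79. Most of them act in mitosis. BIRC5 (survivin) stood at -3.40, the mitotic kinase PLK1 at -2.61, the kinetochore protein gene CENPF at -2.05 and TOP2A at -1.72 on the log2 scale. TOP2A, a topoisomerase, was the most abundant of these 4, at 321.5 CPM in shIGF2BP3 and 1061 CPM in shControl.

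Cohesin, which separase cuts, was lower in part. Of 12 genes, 8 passed as lower, against 25.6% of all tested genes, while 4 missed the threshold, and the median was -0.50. RAD21, the subunit that separase cleaves, had 203.6 CPM in shIGF2BP3 and 463.9 CPM in shControl (log2 fold change -1.19, SE 0.07). SMC1A stood at -0.91, SGO2, a protector of centromeric cohesin, at -1.84 and the acetyltransferase ESCO2 at -1.37 on the log2 scale, all past the test.

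Partners in the SCF pathway, the other main ubiquitin ligase of the cell cycle, were examined in one list with deubiquitinases. Of 10 genes, 5 passed as lower, 1 as higher and 4 missed the threshold, with a median of -0.27. Calls in either direction were near the 51.5% of all tested genes, of which 25.6% passed as lower. CCNF (cyclin F), a substrate receptor of SCF, stood at -2.10 and CUL1, its scaffold, at -0.41 on the log2 scale, while the receptor FBXW7 stood at 0.45, all past the test. USP44, a deubiquitinase of the spindle checkpoint, passed at -2.46 but was scarce, at 0.61 CPM in shIGF2BP3 and 3.39 CPM in shControl.

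The next list held cyclins of G1 and paralogs of the 10 genes. Of 10 genes, 4 passed as lower, 0 as higher and 4 did not pass. Among all tested genes, 25.6% passed as lower and 51.5% in either direction. CCND2 and CDC20B had 0 counts in every library, which allows up to 0.0958 to 0.111 CPM per library by counting error alone. None of the 8 tested genes passed as lower by more than 1.5-fold (edgeR's glmTreat), which 10.3% of all tested genes did. CCND1, the abundant D-type cyclin, had 721.8 CPM in shIGF2BP3 and 852.4 CPM in shControl (log2 fold change -0.24, SE 0.06), and CCND3 and CCNE2 passed at -0.59 and -0.72 on the log2 scale. FBXO43 (EMI2), the paralog of FBXO5 known from oocytes, stood at -1.03 (SE 0.27). Its call was lost without shControl replicate 1 (edgeR adjusted p = 0.0766) and when no low-count filter was used (edgeR adjusted p = 0.0539).

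Of 15 genes for regulators of G2/M promoters, 8 passed as lower, 2 as higher and 5 missed the threshold, with a median of -0.24. Over all tested genes, 25.6% passed as lower and 51.5% in either direction. FOXM1 had 74.4 CPM in shIGF2BP3 and 274.8 CPM in shControl, a log2 fold change of -1.88, and MYBL2 (B-MYB) stood at -1.94. The pocket protein gene RBL2 stood at -1.26 and NFYB, a subunit of the CCAAT-binding factor NF-Y, at -0.98, and all 4 passed the test. The 2 genes that passed as higher were LIN52, at 0.58, and NFYC, another NF-Y subunit, at 0.34. NFYA, also of NF-Y, stood at 0.20 and did not pass. Whether these factors bound the promoters printed above was not measured.

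**Figure D4:**
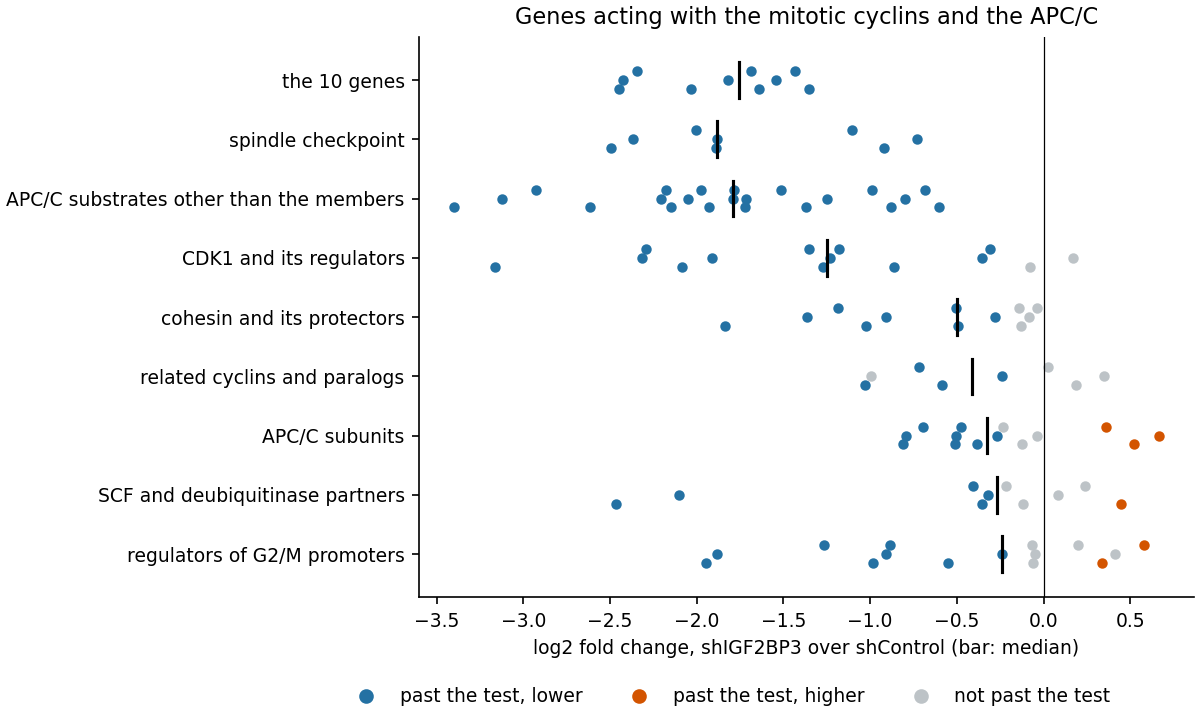
Log2 fold change (shIGF2BP3 over shControl) of each tested gene in 8 lists of genes that act with the 10 genes, coloured by the outcome of edgeR's quasi-likelihood test, with the median as a bar. The medians of the spindle checkpoint (-1.89) and the APC/C substrates (-1.79) lie near that of the 10 genes (-1.75), and that of the APC/C subunits lies at -0.32.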

How the data were processed

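The authors deposited whole-number counts per Ensembl gene for 4 libraries, 2 per group. HISAT2 2.2.0, StringTie and hg38 appear in the submitters' processing notes, with no roles given. For the annotation, the strand setting and the assignment of reads to genes, settings were not given in the sources used here. Counts derived from StringTie would be coverage-based estimates, and the deposited values do not tell which they are. Libraries were made from total RNA with a TruSeq RNA kit, per the labels' protocols. Total counts of 26755695 to 31946756 set the precision, and intervals and floors (3 counts) cover counting error only.

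Symbols came from a table of gene names (56105 genes) and GENCODE 29 (486 more), and 7661 genes had none. Gene positions and exon lengths are those of GENCODE 29 on GRCh38, the assembly also called hg38.

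Counts were fitted with edgeR 4.0.16 in R 4.3.3 (filterByExpr with a smallest count of 10, TMM scaling, robust quasi-likelihood fit in its newer form, group as the only term), with Benjamini-Hochberg adjustment over 19767 genes. The SE is the fold change divided by the square root of the F statistic. The common biological coefficient of variation was 12.62%, and the median prior degrees of freedom were 15.06. The alternatives used other scalings and filters, DESeq2 1.42.0, limma 3.58.1 (voom), a minimum fold, a replicate block, added copies, an older edgeR fit and leaving out each library.

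The 10 genes and the lists were chosen with earlier results of these data known. Named genes are all 10, IGF2BP3, E2F2, up to 4 genes of each pathway list by smallest p, and copies of a member that reach 10 counts in a library. Overlapping genes, marker genes, genes at 0, and LIN52, NFYA and NFYC were named after their values were seen.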

Additional observations from a re-analysis of the deposited data

How the results depend on the processing

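All 10 genes passed as lower under each of the 14 alternatives, 13 of them set out with the main test and 1, the older quasi-likelihood fit, chosen after seeing the data. Without single libraries their log2 fold changes lay between -2.59 (PTTG1) and -1.29 (FZR1). The largest adjusted p of any was 0.000135, for FZR1 without the low-count filter (edgeR's quasi-likelihood test). Over all genes, the count past the test was 10178, and it was 8800 to 9442 without single libraries. With a minimum fold of 1.5 by glmTreat it was 4053 (2021 higher and 2032 lower). A replicate block called 10509 genes and again all 10 members as lower. Same-numbered libraries deviated from their group means with a correlation of 0.0208, and their numbers are not taken as pairs. Scaling by library size alone moved the median of all genes to 0.0897. Alternatives were also examined for 38 other genes, namely those named by smallest p from the pathway lists, the target, E2F2 and the copies. Of their 526 values under alternatives, 513 kept their direction and side of the threshold and 0 reversed. The other 13 lost their call, 9 of them under the minimum fold. With 2 libraries per group, the exact test on single ratios cannot go below 0.333.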
